A study of Homo sapiens with 6 samples.

Results

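The genes described here are 9 human genes of the major histocompatibility complex (MHC) class I pathway, taken by symbol from a deposited RNA-seq count table of 58735 genes: the heavy chains HLA-B, HLA-C, HLA-E and HLA-F, the light chain B2M, the peptide transporter subunits TAP1 and TAP2, the peptide editor TAPBP (tapasin) and the transcriptional activator NLRC5. All 9 had enough reads to be tested. The cells were T3M4, an established line from human pancreatic ductal adenocarcinoma, grown without treatment. The 3 libraries called WT carry the genotype label MUC16 expressing, and the 3 libraries called knockout carry the genotype label MUC16 knockout. MUC16 is a large membrane-tethered mucin of epithelial cells. How the knockout was made and whether it is a clone are not in the labels. Nor do they tell whether replicates are separate cultures, and p-values here therefore reflect only the spread between libraries, which may be technical.

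MHC class I molecules display peptides from inside the cell to CD8 T cells and to receptors of natural killer cells. Peptides are cut by the proteasome, pumped into the endoplasmic reticulum by the TAP1-TAP2 transporter, trimmed by ERAP1 and ERAP2, and loaded onto a heavy chain paired with B2M while tapasin, calreticulin and PDIA3 hold that pair at the transporter. NLRC5 acts at the promoters of some of these genes, the heavy chains among them, together with the RFX, CREB/ATF and NF-Y factors. Interferon gamma raises most genes of the pathway, in part through IRF1.

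Library totals ran from 19088927 to 28612621 counts. MUC16 itself went against the labels, with 292, 504 and 323 counts in the knockout libraries and 98, 144 and 90 in WT (log2 fold change 1.79 ± 0.17 SE; edgeR quasi-likelihood test, adjusted p = 4.79e-09). Gene-level counts carry no information on the protein, and every direction below is given by library label, as knockout relative to WT. All 8 epithelial markers examined were measured and all 8 were higher in the libraries labelled knockout, with a summed level of 3602 to 3686 CPM (counts scaled to library size by TMM factors) in WT and 5712 to 5980 CPM in knockout. Of 12 leukocyte markers, CD2 and MS4A1 had no read in any library and PTPRC, the pan-leukocyte antigen, averaged 0.0645 CPM in WT and 0.144 CPM in knockout; their summed level (80.7 to 88.7 CPM in WT, 35.4 to 40.2 CPM in knockout) was mostly LAPTM5, which was lower in knockout. Fibroblast markers summed to 31.7 to 34.8 CPM in WT and 43.0 to 47.4 CPM in knockout and were mostly COL1A1, and endothelial markers summed to 13.4 to 16.7 CPM and 19.8 to 22.1 CPM and were mostly PECAM1. The part of these differences in the results below was not tested.

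Promoters of class I heavy chain genes carry short elements through which the regulators named above are known to act. A RefSeq promoter table (GRCh38.p14) covers 250 bases before to 50 after the start of each gene. In it 7 of the 9 genes were found, all except HLA-E and NLRC5. The stretch of each that holds the elements upstream of the start is shown 5′ to 3′ on the strand of the gene, to let the reader see how alike the heavy chain promoters are and how the others differ. Capitals mark matches on either strand to any of 4 motifs: GAANNGAAA or AAANNGAAA for the interferon-response element, the NF-kB consensus, CCAAT for the Y box bound by NF-Y, and TGACG, the core of the site bound by CREB and ATF factors. Adjoining or overlapping matches run together.
HLA-B: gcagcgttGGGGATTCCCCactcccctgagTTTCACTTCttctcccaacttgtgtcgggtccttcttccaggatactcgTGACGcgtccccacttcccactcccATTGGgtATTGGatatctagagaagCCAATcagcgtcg
HLA-C: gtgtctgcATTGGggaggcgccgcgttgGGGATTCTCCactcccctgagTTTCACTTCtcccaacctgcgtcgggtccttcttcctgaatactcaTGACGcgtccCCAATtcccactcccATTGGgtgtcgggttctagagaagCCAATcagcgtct
HLA-F: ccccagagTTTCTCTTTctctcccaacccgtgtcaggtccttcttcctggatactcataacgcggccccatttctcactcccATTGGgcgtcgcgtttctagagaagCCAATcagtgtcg
B2M: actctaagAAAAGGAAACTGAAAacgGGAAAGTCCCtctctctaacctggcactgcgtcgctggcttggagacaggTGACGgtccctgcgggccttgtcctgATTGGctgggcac
TAP1: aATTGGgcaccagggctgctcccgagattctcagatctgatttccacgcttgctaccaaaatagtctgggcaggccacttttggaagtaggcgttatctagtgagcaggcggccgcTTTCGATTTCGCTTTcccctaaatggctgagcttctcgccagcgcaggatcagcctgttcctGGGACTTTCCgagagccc
TAP2: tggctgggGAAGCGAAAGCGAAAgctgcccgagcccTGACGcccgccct
TAPBP: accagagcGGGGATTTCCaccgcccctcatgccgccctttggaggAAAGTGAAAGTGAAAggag
The stretches lie at chr6:31357223-31357364 (minus strand) for HLA-B, chr6:31272136-31272292 (minus) for HLA-C, chr6:29723270-29723389 (plus) for HLA-F, chr15:44711366-44711480 (plus) for B2M, chr6:32853759-32853954 (minus) for TAP1, chr6:32838762-32838810 (minus) for TAP2 and chr6:33314079-33314142 (minus) for TAPBP. The interferon-response forms were matched in 7 of the 7 promoters, the NF-kB site in 5, CCAAT in 5 and TGACG in 4. Over all 35116 promoters of the table the shares were 16.5%, 11.3%, 34.6% and 24.6%. The motif strings were chosen after the members' promoters had been read: a longer interferon-response form and GAANNGAAA alone were set aside for the pair of forms that together match all 7, and 2 other NF-kB patterns were considered. The member counts are therefore a description of these sequences and cannot be read against the shares over all promoters. The promoters of HLA-B and HLA-C were identical at 226 of 246 aligned bases (91.9%), and those of HLA-B and HLA-F at 205 of 245 (83.7%). No binding was measured in these samples.

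Across the 9 genes, 6 were higher in the libraries labelled knockout (HLA-B, HLA-C, HLA-F, B2M, TAP1 and TAPBP), TAP2 was lower, and HLA-E and NLRC5 did not pass the threshold. Over all 16655 genes tested the same threshold (edgeR quasi-likelihood test, Benjamini-Hochberg adjusted p of 0.05) called 52.6%, with 26.7% higher and 25.9% lower. With upper-quartile in place of TMM scaling, 5125 genes were higher and 3505 lower (median log2 fold change 0.06), and 7 of the 9 members were higher and 1 lower. The median log2 fold change of the 9 was 0.30, against 0.00 over all genes tested. The 3 knockout libraries lay above the 3 WT libraries for 7 of the 9 genes, against 30.0% of all genes tested, and the groups did not overlap in either direction for 8 of 9, against 59.0%. Most of the 9 are abundant transcripts, and among the 3869 genes averaging over 64 CPM, a comparison added after the data were seen, 852 were higher and 1931 lower with a median of -0.11. The differences in the 9 genes were modest, with log2 fold changes between -0.43 for TAP2 and 0.59 for HLA-F.

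**Figure D1:**
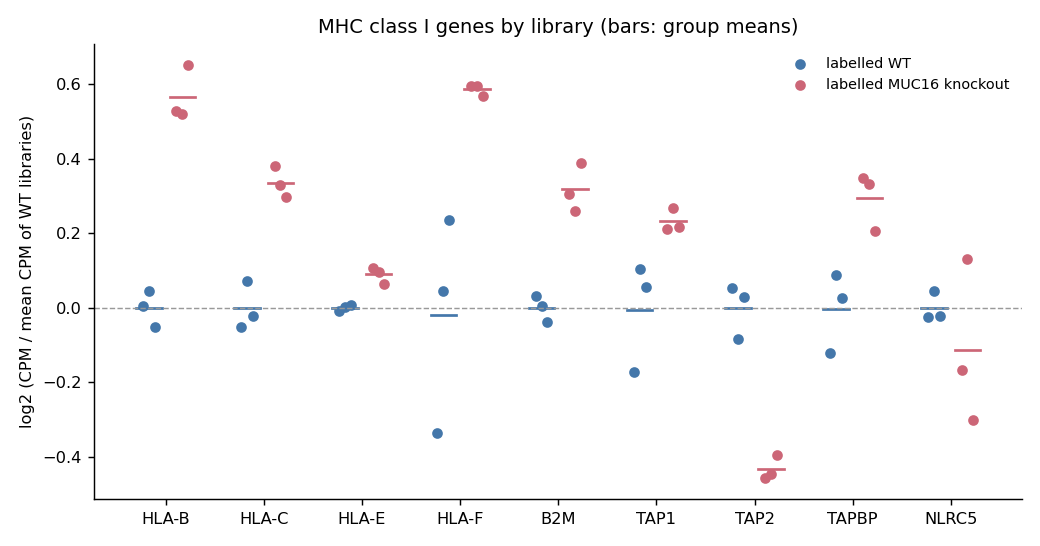
Each of the 9 genes in each library, as log2 of its CPM over the mean CPM of the WT libraries for that gene. WT and knockout libraries are separate points, with a bar at the mean of the log2 values of each group. The knockout points of HLA-B, HLA-C, HLA-E, HLA-F, B2M, TAP1 and TAPBP all lie above the WT points. Those of TAP2 all lie below, and those of NLRC5 straddle them.

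HLA-B, a classical heavy chain that presents peptides to CD8 T cells, showed the largest difference among the abundant members. It stood at 167, 172 and 161 CPM in the WT libraries and at 240.3, 239 and 262 CPM in the knockout libraries. The lowest knockout library was well above the highest WT library. The log2 fold change was 0.57 ± 0.04 (SE; 95% interval 0.48 to 0.66; adjusted p = 2.59e-10).

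HLA-C, the classical heavy chain that is also the main ligand of inhibitory killer-cell receptors, moved the same way by less. Its values were 174, 189 and 177 CPM in WT and 235, 226 and 221 CPM in knockout, with no overlap. This is a log2 fold change of 0.34 ± 0.04 (95% interval 0.25 to 0.43; adjusted p = 7.46e-07). HLA-B and HLA-C are near copies of each other, identical at 92.4% of 1089 aligned coding bases, and their annotated exons share 35 bases. Stretches of 50 bases were taken from the transcript of each gene with the longest coding sequence. Of these, 2.4% for HLA-B and 6.71% for HLA-C also occur in transcripts of another annotated gene. The HLA-B transcript holds only its 1089 coding bases, so its untranslated ends were not examined. That of HLA-C has 1554 bases, of which 1116 are coding. Most of the stretches examined are thus particular to 1 gene in the reference. How the authors' counting divided the rest is not given in the sources used here. With their counts summed as 1 row, an alternative added after the data were seen, the log2 fold change was 0.45. The labels do not give the HLA alleles of the line, and how well reads of its alleles align to the reference was not tested.

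HLA-E, which presents leader peptides of other class I chains to the NKG2A receptor, was nearly level. WT libraries gave 156, 157 and 158 CPM and knockout libraries 169, 168 and 164 CPM. The groups did not overlap, yet the difference was small, at a log2 fold change of 0.09 ± 0.04 (95% interval 0.01 to 0.17), and its adjusted p was 0.0696. It passed the threshold in 4 of 17 alternative settings, and its adjusted p ranged from 0.000395 with cyclic loess scaling to 0.257 without a filter on low counts.

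HLA-F, a low-abundance non-classical heavy chain, was at 5.84, 7.62 and 8.69 CPM in WT and at 11.2, 11.2 and 11.0 CPM in knockout. The WT libraries were spread out while the knockout libraries lay close together above them. The log2 fold change was 0.59 ± 0.12 (95% interval 0.34 to 0.85, adjusted p = 0.000268). Without WT replicate 1, the lowest library, it was 0.44 (adjusted p = 0.00311), below that of HLA-B in the same setting (0.57). Without WT replicate 3, the highest of the WT libraries, it was 0.72. The antisense gene HLA-F-AS1 covers 12.3% of the exon bases of HLA-F and was also higher (log2 fold change 0.71 ± 0.17; adjusted p = 0.00121). The counting strand is not given in the sources used here, so reads of the pair in the shared bases cannot be told apart.

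B2M, the light chain that pairs with class I heavy chains, was the most abundant of the 9. It stood at 649, 637 and 618 CPM in WT and at 784, 760 and 831 CPM in knockout. All knockout libraries exceeded all WT libraries. The log2 fold change of 0.32 ± 0.04 (95% interval 0.23 to 0.40; adjusted p = 6.13e-07) was close to that of HLA-C.

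The subunits of the peptide transporter went in opposite directions. TAP1 was at 70.7, 85.7 and 82.9 CPM in WT and at 92.4, 96.0 and 92.7 CPM in knockout, a log2 fold change of 0.23 ± 0.06 (95% interval 0.11 to 0.35; adjusted p = 0.00152). WT replicate 1 was the lowest library for TAP1, and without it the log2 fold change was 0.15 (adjusted p = 0.0181). TAP2 was at 91.0, 82.8 and 89.6 CPM in WT and at 63.9, 64.5 and 66.8 CPM in knockout, a log2 fold change of -0.43 ± 0.05 (95% interval -0.53 to -0.33; adjusted p = 1.38e-07). For both subunits the groups did not overlap. In the authors' FPKM (counts scaled to library size and gene length), the level of TAP1 over that of TAP2 was 1.03, 1.38 and 1.23 in WT and 1.92, 1.98 and 1.85 in knockout. This ratio was one of 11 formed after the data were seen. Its exact two-sided permutation p was 0.1, the smallest that 3 against 3 libraries allow, and 0.138 after Benjamini-Hochberg adjustment over the 11.

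The transporter genes also share annotated exon sequence with neighbours. PSMB8-AS1 covers 9.49% of the exon bases of TAP1 and was itself low, at 0.993 CPM in WT and 1.67 CPM in knockout. The annotated gene AL669918.1 covers 32.3% of the exon bases of TAP2 and had 0 counts in 5 libraries and 2 in knockout replicate 3. In the TAP2 transcript with the longest coding sequence, 35.6% of the stretches of 50 bases also occur in transcripts of another annotated gene. In that of TAP1 the share was 1.07%. What this does to the counted level of TAP2 was not tested.

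TAPBP encodes tapasin, which bridges the transporter and the heavy chain and favours the binding of stable peptides. It was at 462, 534 and 511 CPM in WT and at 639.9, 632 and 579.6 CPM in knockout, without overlap. The log2 fold change was 0.30 ± 0.05 (95% interval 0.20 to 0.40; adjusted p = 1.87e-05), of the same size as that of B2M.

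NLRC5, the activator of class I promoters, did not differ beyond the spread of its libraries. WT libraries gave 21.1, 22.1 and 21.1 CPM and knockout libraries 19.1, 23.5 and 17.4 CPM. The knockout libraries lay on both sides of the WT libraries. The log2 fold change was -0.10 ± 0.09, with a 95% interval of -0.29 to 0.09 and an adjusted p of 0.365. Knockout replicate 2 was the highest, and without it the log2 fold change was -0.24 with an adjusted p of 0.0317, while without knockout replicate 3, the lowest, it was -0.0024 with an adjusted p of 0.987.

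**Figure D2:**
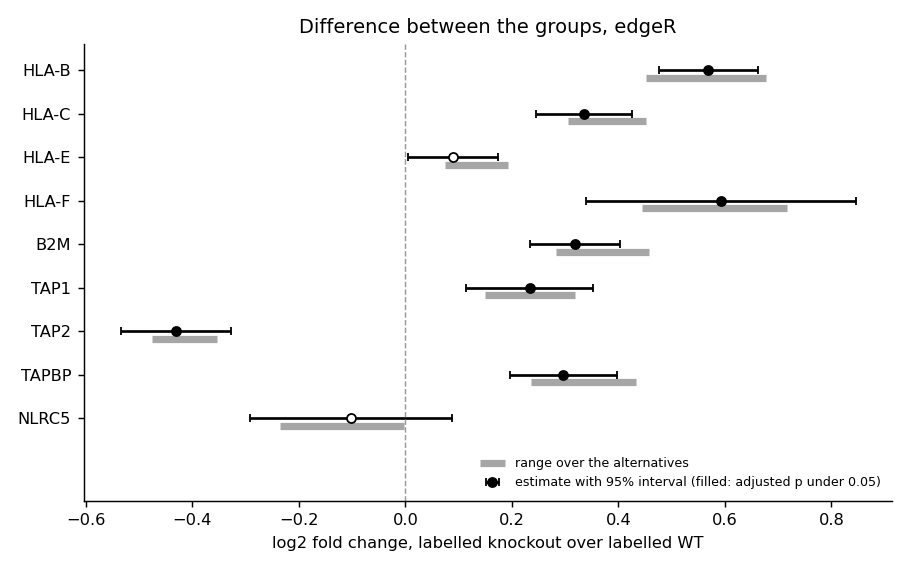
Log2 fold change of each of the 9 genes, libraries labelled knockout over libraries labelled WT, with its 95% interval from the edgeR quasi-likelihood fit. HLA-F (0.59) and HLA-B (0.57) lie highest, TAP2 (-0.43) lies alone on the lower side, and the interval of NLRC5 spans 0.

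Compared per length, the members spanned a wide range. In the authors' FPKM, the mean level in WT fell in the order B2M (104), TAPBP (99.0), HLA-C (71.6), HLA-B (54.4), HLA-E (52.7), TAP1 (16.5), TAP2 (13.7), NLRC5 (1.72) and HLA-F (1.69). Neighbours whose WT libraries overlapped were B2M with TAPBP, HLA-B with HLA-E, and NLRC5 with HLA-F. In knockout the order was the same except that HLA-F (2.53) stood above NLRC5 (1.59). The FPKM divide by all annotated exon bases of a gene, 6079 for B2M, while its transcript with the longest coding sequence has 943. The level of B2M relative to the others is therefore understated on this scale. The gap differs among the other members too, with 5056 and 1888 bases for TAPBP and 2975 and 2601 for HLA-E. The order of levels thus depends in part on annotated length.

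**Figure D3:**
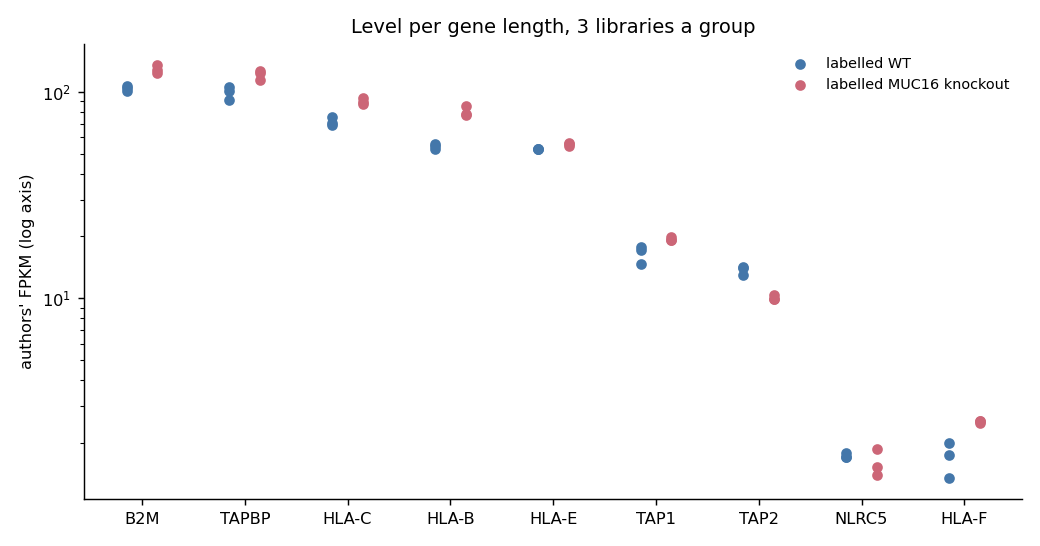
Level per length of the 9 genes in the authors' FPKM on a log axis, with 1 point per library and the groups apart. Levels run from about that of HLA-F (1.69 in WT) to that of B2M (104 in WT), and HLA-F and NLRC5 exchange places between the groups.

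Heavy chains were also set against the light chain they pair with. The FPKM of HLA-B relative to B2M was 0.523 ± 0.0125 (SD, n = 3 libraries) in WT and 0.622 ± 0.00997 in knockout (exact permutation p = 0.1, the smallest possible). For HLA-C relative to B2M the values were 0.688 ± 0.0358 and 0.698 ± 0.0452 (exact permutation p = 0.7). HLA-E relative to B2M was 0.507 ± 0.0154 in WT and 0.433 ± 0.0252 in knockout (exact permutation p = 0.1). The groups did not overlap for HLA-B, higher relative to B2M in knockout, or for HLA-E, lower relative to it, and they overlapped for HLA-C. None of the 11 ratios could pass the threshold with 3 libraries a group.

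The wider peptide loading machinery split in direction. A list of 13 genes of the loading complex and of peptide trimming holds TAP1, TAP2, TAPBP and B2M. Of these 13, 7 were higher, 5 lower and 1 was not called, with a median log2 fold change of 0.17. Over all genes tested 26.7% were higher and 25.9% lower, and the lists below stand beside the same shares. CALR (calreticulin), the chaperone of the complete loading complex, rose from 936 to 1092 CPM (log2 fold change 0.22), while CANX (calnexin), the chaperone of newly made heavy chains, fell from 1426 to 1044 CPM (-0.45). UGGT1, which checks the folding of glycoproteins and returns poorly loaded class I to the complex, fell by 0.43 on the log2 scale, from 138 to 103 CPM. Both trimming peptidases fell, ERAP1 from 71.2 to 55.2 CPM (-0.37) and ERAP2 from 422 to 337.5 CPM (-0.32). TAPBPL, the tapasin-related peptide editor, rose from 21.7 to 28.2 CPM (0.38), and the smaller rises of PDIA3 (0.17) and ERP29 (0.19) also passed the threshold.

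The 3 inducible catalytic subunits of the proteasome, PSMB8, PSMB9 and PSMB10, were higher, and 2 of the 3 constitutive subunits they replace were lower. Of 7 genes of the immunoproteasome and its activators, 3 were higher, 1 was lower and 3 were not called (median 0.09); without knockout replicate 3 a second was lower. PSMB9, whose annotated span encloses TAP1 on the opposite strand, rose from 35.0 to 46.4 CPM (log2 fold change 0.40 ± 0.07; adjusted p = 2.36e-05). The annotated exons of PSMB9 and TAP1 share no bases. PSMB8, between TAP2 and TAP1, rose from 95.5 to 107 CPM (0.17 ± 0.05; adjusted p = 0.00414), and PSMB10 from 13.4 to 17.2 CPM (0.36 ± 0.10; adjusted p = 0.00319). The activator subunits PSME1 (0.09, adjusted p = 0.130) and PSME2 (-0.08, adjusted p = 0.145) did not pass. PSME3, an activator subunit of nuclear proteasomes, fell from 237 to 189 CPM (-0.33). Of the 3 catalytic subunits that the inducible ones replace, PSMB5 fell from 141 to 119 CPM (-0.24) and PSMB7 from 231 to 186 CPM (-0.31), while PSMB6 stood at 134 CPM in both groups (0.00 ± 0.05).

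Among 19 other class I and class I-like genes, 16 were tested, 4 were higher, 3 lower and 9 not called (median 0.18). MR1, which presents vitamin B metabolites to MAIT cells, rose from 29.3 to 52.7 CPM (0.85), HFE, a regulator of iron uptake, from 26.9 to 36.8 CPM (0.45), and FCGRT, the heavy chain of the neonatal Fc receptor, from 4.33 to 9.78 CPM (1.19). ULBP3, a ligand of the activating receptor NKG2D, fell from 4.08 to 2.27 CPM (-0.84), and PROCR, the endothelial protein C receptor, fell from 19.2 to 14.5 CPM (-0.41). The pseudogene HLA-K rose from 11.9 to 14.2 CPM (0.26), and HLA-G had no read in any library.

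Of 17 regulators of class I genes, 5 were higher, 4 lower and 8 not called (median -0.01). The shares over all genes tested were 26.7% higher and 25.9% lower. IRF1, an activator that binds interferon-response elements, rose from 37.8 to 49.7 CPM (log2 fold change 0.40 ± 0.07; adjusted p = 1.95e-05). EZH2, the catalytic subunit of the repressive complex PRC2, fell from 73.2 to 55.0 CPM (-0.41 ± 0.05; adjusted p = 7.43e-07). RFX5, the partner of NLRC5 on class I promoters, gave 64.6 CPM in WT and a log2 fold change of -0.01 ± 0.05 (adjusted p = 0.841). NFYB (0.32), RFXANK (0.24) and IRF2BP2 (0.20) rose and NFYC fell (-0.18). With upper-quartile scaling 2 regulators were lower, with cyclic loess 1, and at an adjusted p of 0.01 2.

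In the interferon gamma receptor pathway 3 of 12 genes were higher, 3 lower and 6 not called (median 0.01), and with cyclic loess 1 was lower. IFNGR1, the ligand-binding receptor chain, rose from 61.3 to 87.4 CPM (log2 fold change 0.51), STAT2 from 61.3 to 80.2 CPM (0.39), and IRF1 as given above. The phosphatases PTPN2 (-0.25) and PTPN1 (-0.17) and the feedback inhibitor SOCS3 (-0.18) fell. Of 15 genes of class I turnover, 9 were higher, 1 lower and 5 not called (median 0.26). For this list and the interferon gamma list, the shares over all genes tested were 26.7% higher and 25.9% lower. The lysosomal proteases CTSB (0.68), CTSD (0.65) and CTSL (0.53), the ubiquitin ligase MARCH9 (0.57) and the autophagy receptor NBR1 (0.46) rose, while MARCH4, a ligase of the same family, fell (-0.69), and without WT replicate 1 a second gene of the list was lower. Of 15 class II genes only 4 had enough reads, of which HLA-DMA (0.84) and CTSS (1.21) rose, each to under 6 CPM, and the class II activator CIITA was at 1.55 CPM in WT and 1.34 CPM in knockout (adjusted p = 0.498).

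**Figure D4:**
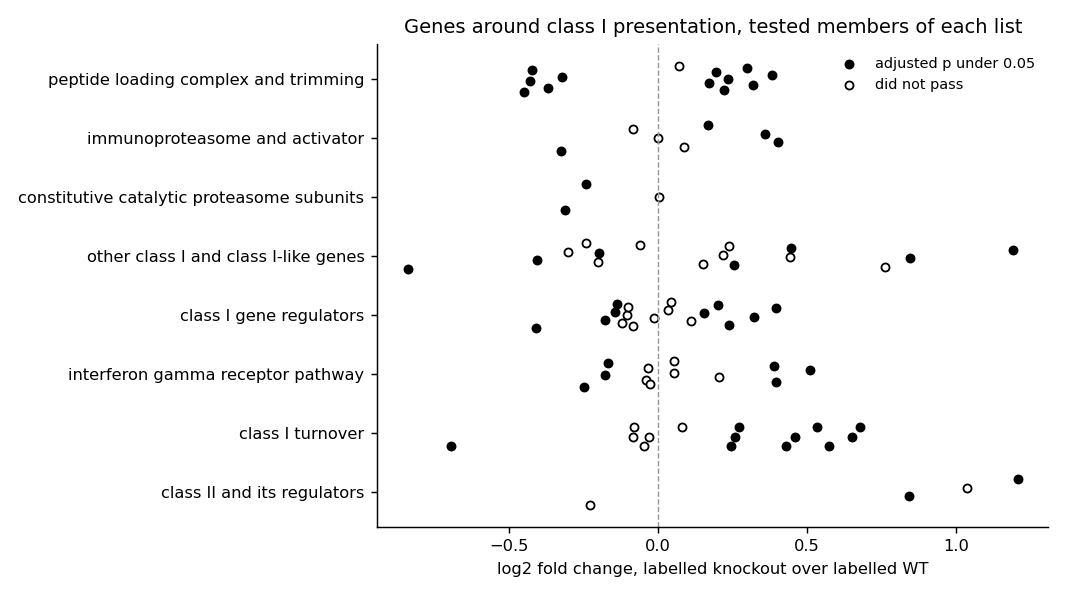
Log2 fold changes of the tested genes of each list of the pathway, libraries labelled knockout over libraries labelled WT, with 1 point per gene and called genes marked. Turnover genes lie mostly on the higher side (9 of 15 called higher), while the loading and trimming genes fall on both sides (7 higher and 5 lower of 13). Over all genes tested 26.7% were called higher and 25.9% lower.

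Of the 9 genes, 7 lie in the MHC on the short arm of chromosome 6, while B2M is on chromosome 15 and NLRC5 on chromosome 16. Between GABBR1 and KIFC1 (6:29555629 to 33409924, GRCh38) 132 genes were tested. Of these, 45 (34.1%) were higher and 24 (18.2%) lower, with a median log2 fold change of 0.15. Over all genes tested 26.7% were higher and 25.9% lower, with a median of 0.00. Without the 7 members 40 of 125 (32%) were higher and 23 (18.4%) lower. On the rest of chromosome 6, 229 of 734 genes (31.2%) were higher and 157 (21.4%) lower. Of the tested non-member genes next to or overlapping a member there, only the pseudogene RANP1 (-0.56) beside HLA-E was lower. RANP1 was at 7.51 CPM in WT and 5.03 CPM in knockout. GNL1 (0.31) on the other side of HLA-E was higher, as were ZBTB22 (0.66) and RGL2 (0.33) on either side of TAPBP. HLA-F-AS1 (0.71) at HLA-F and PSMB9 (0.40) and HLA-DMA (0.84) at TAP1 were also higher. SUMO2P1, HCG27 and AL645933.2, next to HLA-F, HLA-C and HLA-B, were not called. TAP2, lower, lies between HLA-DOB, which was not called (1.04 ± 0.49; adjusted p = 0.0789), and PSMB8, which was higher.

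**Figure D5:**
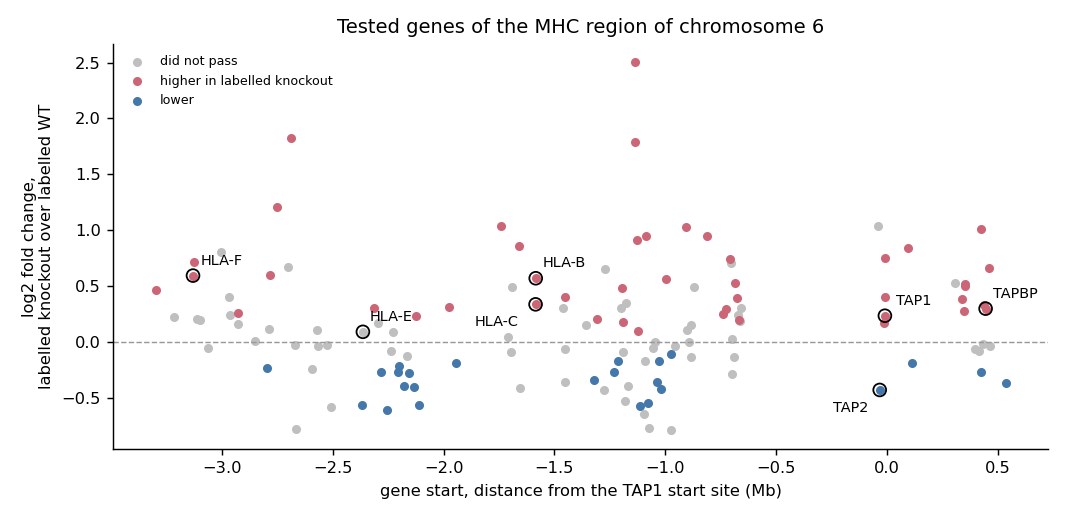
Log2 fold change of the 132 tested genes of the MHC region against distance from TAP1 in megabases, with the 7 members that lie there named. Genes on both sides of 0 are interspersed along the region, and TAP2 lies below 0 beside TAP1 above it.

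The protein-coding genes whose 6 library values, each centred on its own mean log2 CPM, came nearest to the mean profile of the 9 were TNKS1BP1, CYTH1, DGCR2, PTK6 and PLXNB2. Their root mean square differences from it ran from 0.00770 to 0.0177 on the log2 scale, among 10784 genes ranked over 6 libraries. The members themselves lay farther from their own mean, from 0.0547 for TAP1 to 0.331 for TAP2. In the authors' deposited table the log2 fold changes of the 9 genes had the same signs, for example 0.56 for HLA-B, 0.31 for B2M and -0.44 for TAP2.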

How the data were processed

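RNA-seq of 6 libraries of T3M4 cells was analysed from 2 deposited tables. Raw counts per gene and library are as the authors deposited them. The authors' comparison table adds a normalised signal (the authors' counts over a library factor, found from the values), FPKM per the file headers, and log2 fold changes and p-values deposited by the authors. Of these, FPKM served for levels per length and the normalised signal for a minimum in 1 ranking. The tools named, per the submitters' processing notes, are fastp, HISAT2, STAR and DESeq, on GRCh38; their roles and versions, the counter and its strandedness were not given in the sources used here. Per the labels' protocols, libraries were made with the NEBNext Ultra RNA kit.

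Counts of all 58735 genes were filtered with filterByExpr (minimum count 10, total 15), TMM-scaled and tested with edgeR 4.0.16 (two-sided glmQLFTest after glmQLFit with group only; R 4.3.3), Benjamini-Hochberg adjusted over 16655 genes at 0.05. CPM are TMM-scaled; SE come from the F statistic. Library totals were 19088927 to 28612621. Counts differed beyond sampling noise between any 2 replicates. The edgeR step was tested on simulated data. Results for 2 genes of the lists are not reported here, and list counts, MHC counts and the ranking leave them out. Members and gene lists were chosen with earlier results of these data known. Named genes were the members, MUC16, up to 6 called genes per list, by size of change, partners of members, neighbours in the MHC and the 5 nearest profiles; other list genes (such as HLA-G and CIITA) were named after their values were seen. The motifs, ratios, sequence identities, 50-base stretches and the group over 64 CPM were added after the data were seen. Alternatives were other scalings, filters and tests, a replicate block, leaving out each library, a stricter threshold and other gene sets.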

Additional observations from a re-analysis of the deposited data

How the results depend on the processing

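Over 18 alternatives, 150 of the 155 log2 fold changes recomputed for single members kept their direction and their side of the threshold, and none reversed. The exceptions were HLA-E, which passed with upper-quartile factors (0.14, adjusted p = 0.00459), the stricter filter of 50 counts in 3 libraries (0.12, 0.0164), cyclic loess (0.19, 0.000395) and without knockout replicate 3 (0.10, 0.0443), and NLRC5, which passed without knockout replicate 2 (-0.24, 0.0317) and was at -0.0024 (0.987) without knockout replicate 3. Leaving out 1 library at a time gave 1 to 2 members lower and 6 to 7 higher; the 2 were reached without knockout replicate 2. The cause was not tested beyond these values. Of 272 recomputed list counts, 6 moved by over 1.5 times. The number of genes called ran from 6935 at an adjusted p of 0.01 to 8766 with limma-voom, against 8759. Same-numbered libraries showed little shared deviation over all genes tested (correlations 0.0116, 0.0205 and -0.0240). Taken over all genes, these values cannot tell whether the numbers pair the libraries for part of the genes. A fit with the replicate block called 8442 genes, with 6 members higher and 1 lower. HLA-F and NLRC5 had the fewest counts of the 9 (at most 321 and 603 in a library) and the widest standard errors (0.12 and 0.09); the part of depth in this was not tested.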
